A study of Mus musculus with 2 samples.

Results

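The forkhead genes encode transcription factors that share a winged-helix DNA-binding domain, and they are sorted into subfamilies by the letter after Fox. The 41 mouse forkhead genes described here, in 17 subfamilies, were taken from a list of symbols, and other forkhead genes were not used here. All 41 symbols matched the RefSeq annotation of GRCm38, which holds 21631 protein-coding genes on the chromosomes with peaks. A gene was counted as having a peak when a Suz12 peak overlapped its body or lay within 2.5 kb of it. By this rule 35 of the 3373 peaks belonged to forkhead genes.

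The study mapped Suz12 by chromatin immunoprecipitation and sequencing in 2 libraries of mouse embryonic stem cells kept in serum, both made with the antibody D39F6. The library analysed here came from wild-type E14 cells (strain E14-WT), an established mouse embryonic stem cell line, after 72 h in 1 µM all-trans-retinoic acid without leukemia inhibitory factor. The other, from Suz12-KO cells (genotype Suz12[-/-]) at 0 h, was not analysed here, and it differs from the first in genotype and time together. With 1 library there is no replicate error and no test between groups, the intervals given cover counting error only, and a peak list holds no measure of expression by which the cell type could be checked.

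Suz12 belongs to Polycomb Repressive Complex 2 (PRC2), an enzyme that methylates histone H3 at lysine 27 and is found mostly at CpG-rich start sites of genes that are not transcribed. In embryonic stem cells its best known targets are regulators of later development. The forkhead family holds such regulators, which pattern endoderm, mesoderm, neural tissue and sense organs, beside broadly expressed members that act in metabolism, cell division and growth signalling.

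A Suz12 peak lay at 25 of the 41 forkhead genes (61.0%, exact 95% binomial interval 44.5 to 75.8), against 13.1% of all protein-coding genes. The share differed by subfamily. Every member of A, B, C, D, E, F, L and Q had a peak, no member of H, K, M or S had one, and I, J, N, O and P, with 18 genes between them, were mixed. H, M, Q and S are represented by 1 gene each. Of the 23 genes of subfamilies A to F, H, I, L, Q and S, 20 had a peak (87.0%, 66.4 to 97.2). Of the 18 genes of J, K, M, N, O and P, 5 had one (27.8%, 9.69 to 53.5). These groups of subfamilies were chosen with earlier results of these data known. Their shares and intervals therefore describe the split and do not test it.

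**Figure D1:**
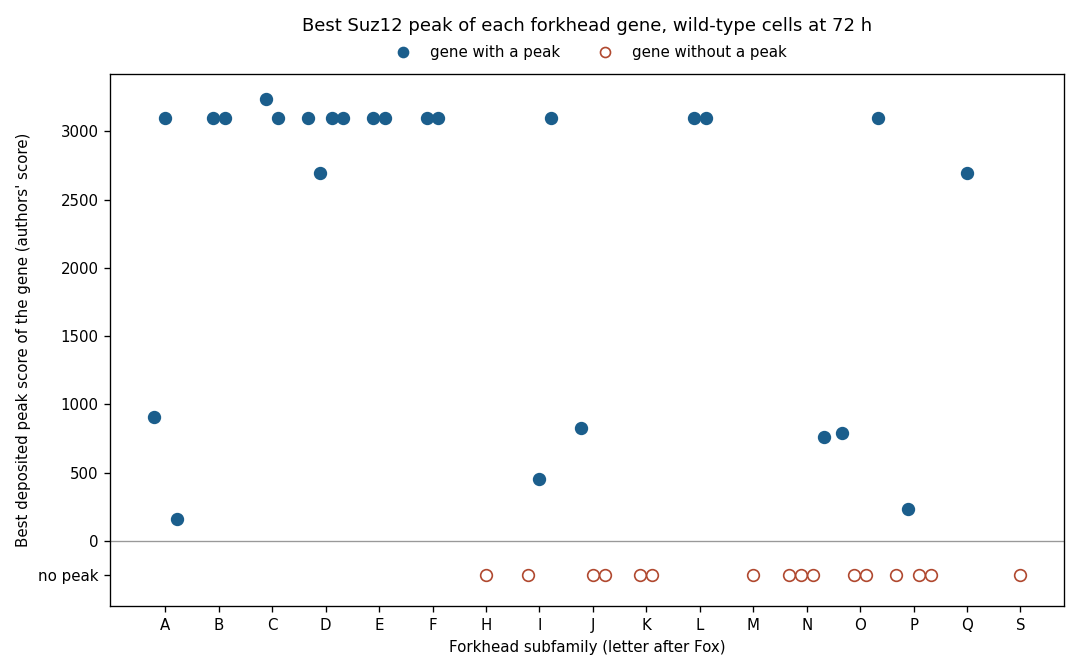
Best deposited peak score of each of the 41 forkhead genes (vertical axis, the authors' score) by subfamily (horizontal axis), with filled points for the 25 genes with a peak and open points in a strip below 0 for the 16 without. Most genes of subfamilies A to F and L sit at or near 3100, while the points of J, N and P with a peak lie below 1000.

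The DNA just before 5 start sites is shown because the series asks about CpG islands. These runs cover the range of CpG counts in the 26 of 41 members with a listed start, and the other members are not covered. Each run is the 250 bases before the RefSeq start (GRCm38.p6), read 5′ to 3′ on the gene's strand, with every CpG dinucleotide in capitals. Foxc1 had the most and Foxi2 the fewest CpG of the members with a peak at the start, counted over 250 bases before and 50 after it. Foxk2 had the most and Foxi1 the fewest (level with Foxn3) of the 10 members with a listed start and no peak. Foxf2 is the other clustered gene with a listed start. Foxc1 (chr13:31806396-31806645, plus strand) and Foxf2 (chr13:31625566-31625815, plus strand) lie in 1 cluster. Foxi2 lies at chr7:135410117-135410366 on the plus strand, Foxk2 at chr11:121259737-121259986 on the plus strand and Foxi1 at chr11:34208090-34208339 on the minus strand.
Foxc1: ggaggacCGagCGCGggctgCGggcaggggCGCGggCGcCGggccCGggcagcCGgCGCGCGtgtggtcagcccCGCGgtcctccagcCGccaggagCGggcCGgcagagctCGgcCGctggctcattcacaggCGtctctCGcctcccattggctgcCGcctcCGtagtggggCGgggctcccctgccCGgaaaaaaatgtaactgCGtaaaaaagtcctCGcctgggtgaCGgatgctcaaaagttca
Foxf2: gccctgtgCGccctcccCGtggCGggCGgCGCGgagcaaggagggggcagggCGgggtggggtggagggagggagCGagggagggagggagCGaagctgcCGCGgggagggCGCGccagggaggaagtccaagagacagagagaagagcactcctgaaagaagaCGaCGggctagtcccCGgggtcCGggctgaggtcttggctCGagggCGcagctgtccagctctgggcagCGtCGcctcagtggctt
Foxi2: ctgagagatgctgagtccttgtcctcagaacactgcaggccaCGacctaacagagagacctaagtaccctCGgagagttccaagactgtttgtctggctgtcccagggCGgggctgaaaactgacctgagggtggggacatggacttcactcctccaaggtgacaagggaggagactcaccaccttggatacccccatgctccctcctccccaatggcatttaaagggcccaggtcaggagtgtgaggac
Foxk2: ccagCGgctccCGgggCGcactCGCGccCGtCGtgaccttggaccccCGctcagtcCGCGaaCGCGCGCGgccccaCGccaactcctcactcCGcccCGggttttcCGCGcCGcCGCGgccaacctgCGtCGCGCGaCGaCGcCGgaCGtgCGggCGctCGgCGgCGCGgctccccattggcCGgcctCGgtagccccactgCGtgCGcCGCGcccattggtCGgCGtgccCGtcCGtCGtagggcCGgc
Foxi1: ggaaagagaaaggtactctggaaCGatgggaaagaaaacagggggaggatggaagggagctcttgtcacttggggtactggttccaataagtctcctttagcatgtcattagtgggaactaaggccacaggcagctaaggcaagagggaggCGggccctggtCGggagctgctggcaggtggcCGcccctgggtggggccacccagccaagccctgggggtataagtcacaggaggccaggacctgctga
The printed runs hold 29 CpG at Foxc1, 21 at Foxf2, 3 at Foxi2, 48 at Foxk2 and 4 at Foxi1. The run richest in CpG therefore belongs to a gene without a peak, and a poor one, that of Foxi2, to a gene with a peak.

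The peak score is the authors' own value, with no scale given in the file. Over the whole list it ran from 150.3 to 3233, and 325 peaks share the value 3100, so scores at and above 3100 were read as 1 top class. A best score of 3100 or more was reached at 16 of the 41 forkhead genes, against 1.71% of all protein-coding genes. Counted over genes with a peak, these were 16 of 25 forkhead genes (64.0%) and 369 of all 2833 genes. In other transcription factor families the top class held 4 of 13 Sox, 6 of 8 Pax, 4 of 9 Tbx and 2 of 5 Gata genes with a peak. The best peak of a forkhead gene had a median width of 3990 bp, against 1981 bp over all genes with a peak. The medians were 3077 bp for Sox, 4165 bp for Tbx, 5235 bp for Gata and 6994.5 bp for Pax genes with a peak. Below 3100 wide peaks tended to score higher, so there score and width are not separate measures. At exactly 3100 width varied with no change in score, and the 15 forkhead peaks there ran from 2761 to 12622 bp. Their median was 5754 bp, against 5477 bp over all peaks at that score.

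**Figure D2:**
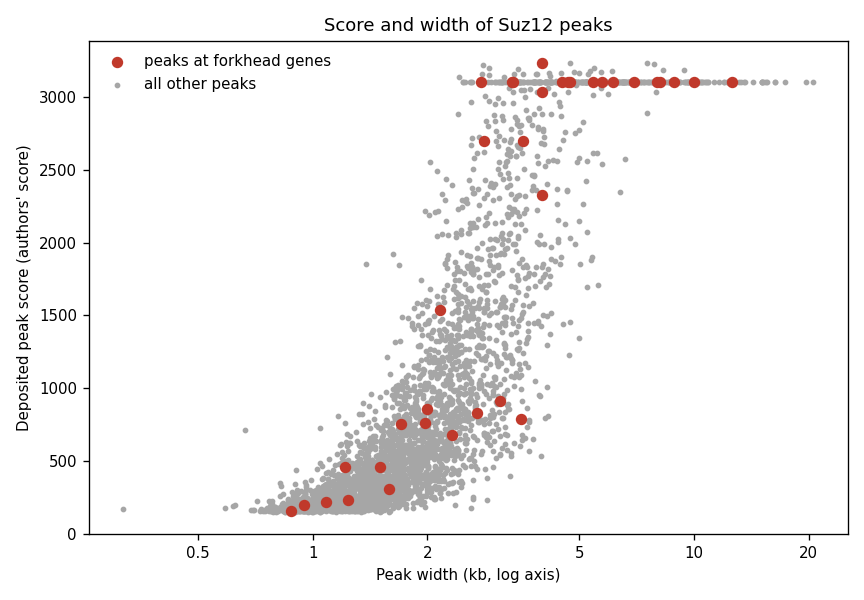
Width (horizontal log axis, kb) and deposited score (vertical axis) of the 35 peaks at forkhead genes, in red, and of all other peaks, in grey. The forkhead peaks run from 877 bp to 12622 bp along the same curve as the others, and 16 of the 35 sit at a score of 3100 or more.

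Genes of the endoderm subfamily A differed widely. Foxa1, Foxa2 and Foxa3 encode factors that open chromatin for the liver and gut programmes. Foxa2, also a marker of node and floor plate, had 2 wide peaks. The one over the gene, on chromosome 2 from 148043259 to 148047261, was 4003 bp wide with a score of 3031 and covered 90.7% of the gene. The other, of 4678 bp and score 3100, lay 591 bp beyond the gene. Foxa2 was thus in the top class through a peak beside the gene. Foxa1 had 3 smaller peaks with scores of 909, 459 and 220.5. Its best peak, of 3100 bp, lay 235 bp beyond the gene and within 2.5 kb of the neighbouring gene Ttc6. Its only peak over the gene scored 459. Foxa3 had 1 peak of 877 bp with a score of 159, close to the lowest of the list and within 2.5 kb of the gene Sympk.

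The genes of subfamilies B and D lay under wide peaks. Foxb1, a factor of hypothalamus and midbrain, lay wholly under a peak of 10037 bp, and Foxb2 under one of 8860 bp, each with a score of 3100. At Foxb1 a further peak of 3911 bp and score 2793 began 6158 bp beyond the gene, directly after the first. The widest peak of the family, 12622 bp on chromosome 4 from 99648679 to 99661300, covered Foxd3, a gene of neural crest and of the undifferentiated epiblast. Only 17 of the 3373 peaks in the list were wider. Foxd1, a gene of the kidney stroma, lay under a peak of 6151 bp, and Foxd4 under one of 5754 bp. Both had a score of 3100. Foxd2 was the lowest of its subfamily, with 94.1% of the gene under a peak of 2815 bp and score 2697. A second Foxd2 peak, of 3987 bp and score 2329, lay 2341 bp beyond the gene, the farthest that the rule counted.

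Subfamily E showed the same form on short genes. Foxe1, which is needed for the thyroid, lay wholly under a peak of 4727 bp with score 3100 and had a second of 2321 bp with score 679.9. Foxe3, a lens gene, lay wholly under a peak of 3330 bp with score 3100. Foxe3 and Foxd2 are neighbours on chromosome 4 with 15544 bp between them, and the long non-coding RNA gene Foxd2os lies in that gap and holds a peak of score 563. Foxl2, which keeps the granulosa cell identity in the ovary, lay wholly under a peak of 6947 bp with score 3100 that also covered part of the non-coding gene Foxl2os.

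More than 1 peak was counted at 8 of the 41 genes, against 2.2% of all protein-coding genes. In other transcription factor families it was 5 of 19 Sox, 7 of 9 Pax, 7 of 13 Tbx and 3 of 6 Gata genes. In all, 9 forkhead genes, of 1515 to 3231 bp, each lay wholly under a single peak, against 0.527% of all protein-coding genes. They were Foxb1, Foxb2, Foxc2, Foxd1, Foxd3, Foxd4, Foxe1, Foxe3 and Foxl2. Short genes are covered more easily. Of genes of at most 5 kb, 9 of 21 forkhead genes and 98 of all 4850 were wholly covered. Among those of them with a peak, the median share of the gene under peaks was 97.0% over 18 forkhead genes and 64.8% over all 427.

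**Figure D3:**
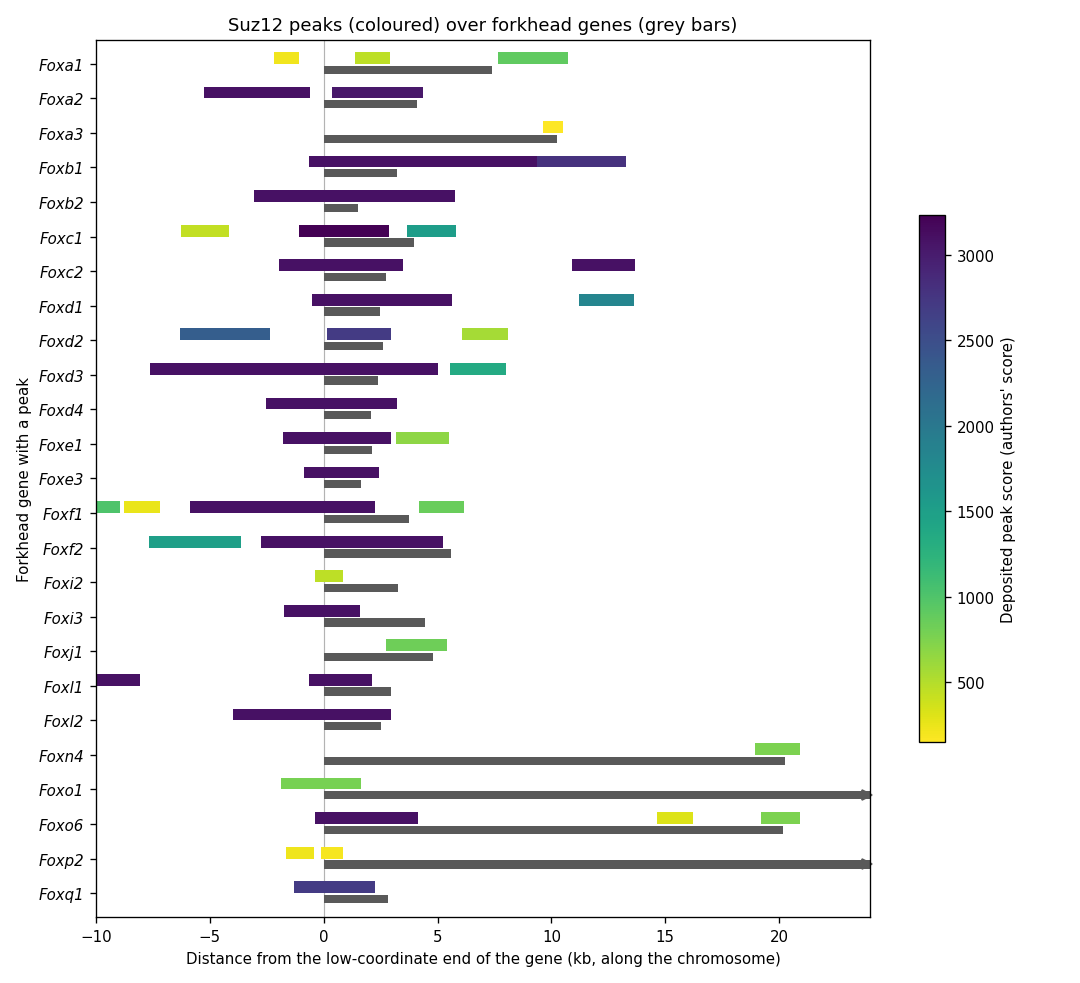
Suz12 peaks (coloured by deposited score) above each of the 25 forkhead genes with a peak (grey bars), shown as distance from the gene's low-coordinate end in kb along the chromosome. Peaks farther than 2.5 kb from the gene are drawn too where they fall in the window, and arrows mark Foxo1 and Foxp2, which run past it. Peaks exceed the short genes of subfamilies B, D and E on both sides, Foxd2 aside, and take up a small part of Foxn4, Foxo1 and Foxp2.

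The first cluster, Foxq1, Foxf2 and Foxc1 on chromosome 13 from 31558170 to 31810635, spans 252466 bp. Its peaks lay in separate groups at Foxf2 and Foxc1, with a single peak at Foxq1. Foxc1, a gene of mesoderm and the anterior eye, had a peak of 3990 bp with score 3233, in the top class. Scores within that class are not ranked here. A second peak, of 2155 bp with score 1535, lay at the other end of Foxc1. Together these peaks covered 81.2% of the gene. Foxf2, a gene of gut, palate and pericyte mesenchyme, had a peak of 7985 bp with score 3100 over 93.6% of the gene. Foxq1, a gene of hair and epithelia, had a peak of 3569 bp with score 2697 over 81.0% of the gene. All 3 genes were covered over most of their length, and the long spaces between them held few peaks.

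Those spaces measure 64839 bp between Foxq1 and Foxf2 and 175239 bp between Foxf2 and Foxc1. The peaks in them lay close to a gene. Peaks of score 1505 and 414 lay 3631 and 9149 bp from Foxf2, and a peak of score 435 lay 4137 bp from Foxc1. In all 7 peaks touched the stretch and covered 9.04% of it. The next coding gene beyond Foxc1, Gmds, had no peak and lay 7142 bp from the nearest.

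The second cluster, Foxf1, Foxc2 and Foxl1 on chromosome 8 from 121084386 to 121130644, is shorter at 46259 bp, and 4 peaks covered 26.95% of it. Foxf1, a gene of lung and gut mesenchyme, had a peak of 8143 bp with score 3100 over 60.1% of the gene that ran on into the neighbouring non-coding gene Fendrr, which acts in the lateral mesoderm. Fendrr held 3 peaks in all, over 32.6% of its length. Foxc2, a gene of lymphatic vessels and mesoderm, lay wholly under a peak of 5445 bp with score 3100. Foxl1, a gene of the mesenchyme below the gut epithelium, had a peak of 2761 bp with score 3100 over 72.3% of the gene.

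The coding gene Mthfsd lies between Foxf1 and Foxc2, an interval of 28016 bp. No peak overlapped it, though the second Foxf1 peak, of 1996 bp and score 857, lay 1080 bp from it. The clusters thus each had a peak over each forkhead gene and none over the coding genes next to them, Mthfsd and Gmds. By the 2.5 kb rule, however, Mthfsd counted as a gene with a peak, and Gmds did not. The covered share was higher in the shorter stretch, with 12467 bp under peaks there and 22812 bp in the longer one. Both stretches begin and end with a gene, so their covered shares are not comparable with a genome average.

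**Figure D4:**
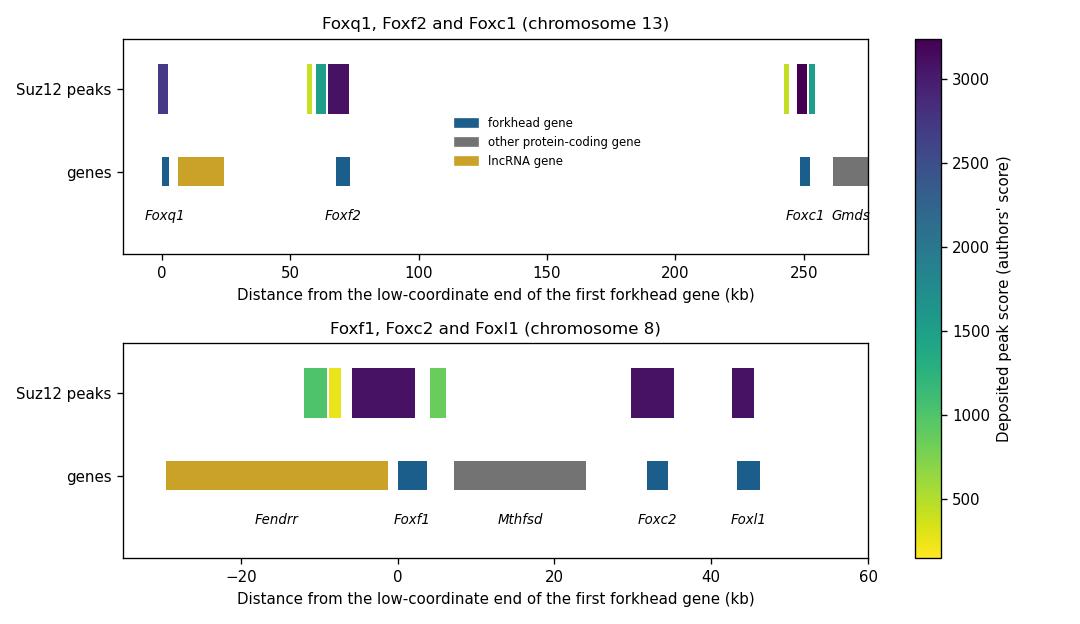
Genes (lower row) and Suz12 peaks (upper row, coloured by deposited score) in the clusters on chromosome 13 and chromosome 8, as distance from the low-coordinate end of the first forkhead gene in kb, with a different scale in each panel. Each of the 6 forkhead genes lies under a peak of score 2697 or more, and no peak lies over Mthfsd or Gmds.

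The mixed subfamilies set close relatives apart. In subfamily I, Foxi3, needed for the ear and other placodes, had a peak of 3350 bp with score 3100, Foxi2 had 1 of 1216 bp with score 456, and Foxi1, the gene of ionocytes in inner ear and kidney, had none, the nearest being 360343 bp away. In subfamily J, Foxj1, which drives motile cilia, had a peak of 2701 bp with score 828, within 2.5 kb of Rnf157 as well. Foxj2 and Foxj3 had none. In subfamily N, Foxn4, a gene of retinal and spinal progenitors, had a peak of 1974 bp with score 760.2. Foxn1, the gene of the thymic epithelium, and Foxn2 and Foxn3 had none.

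Subfamily O, which answers to insulin signalling, was split evenly. Foxo6, found mainly in brain, had 3 peaks with scores of 3100, 753 and 308, and they covered 33.1% of the gene. It was the only gene of J, K, M, N, O and P in the top class. Foxo1 had a peak of 3530 bp with score 786 that covered 2.01% of this gene of 81773 bp. Foxo3 and Foxo4 had none. In subfamily P, Foxp2, a gene of brain circuits, had 2 low-scoring peaks, of 229 and 197, at its low-coordinate end, while Foxp1, Foxp4 and the regulatory T cell gene Foxp3 had none.

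The members without a peak were Foxh1, Foxi1, Foxj2, Foxj3, Foxk1, Foxk2, Foxm1, Foxn1, Foxn2, Foxn3, Foxo3, Foxo4, Foxp1, Foxp3, Foxp4 and Foxs1. Foxh1, a partner of the Smad proteins in Nodal signalling, and Foxm1, a driver of cell division, are among them. No member lay near the limit of the rule. All 25 genes with a peak had a peak over the gene itself, and the nearest of the other 16, Foxs1, was 8447 bp from a peak, which lay over Dusp15. Foxj2 followed at 17607 bp, from a peak over Slc2a3, and 11 of the 16 lay more than 100000 bp from any peak. Their median distance was 145732 bp, against 241058.5 bp for all coding genes without a peak. Depth is unknown, so weak Suz12 signal that missed the authors' threshold at these genes cannot be seen.

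Forkhead genes with a peak were short, with a median length of 3256 bp, and those without were long, with a median of 39518.5 bp. Over all coding genes the order was the other way round, with medians of 27813 bp with a peak and 16462 bp without. Of genes of at most 5 kb, 18 of 21 forkhead genes had a peak, against 8.8% of all coding genes of that size. Of longer genes, 7 of 20 forkhead genes had a peak, against 14.3% of all. In the family, length goes with subfamily, since 20 of the 21 short genes belong to A to F, H, I, L, Q and S. Among genes over 5 kb, a peak lay at 3 of 3 from those subfamilies, Foxa1, Foxa3 and Foxf2, and at 4 of 17 from J, K, M, N, O and P. Among the short genes only Foxj1 comes from the second group, so there length and subfamily cannot be told apart.

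The start site itself lay under Suz12 at nearly every member with a peak and a listed start. RefSeq start windows were matched for 26 of the 41 members, 16 with a peak and 10 without. At 15 of the 26 a start lay inside a peak, against 8.57% of all coding genes with a window, and at 16 within 2.5 kb of a peak, against 10.0%. The exception was Foxa1, whose listed start lies 1918 bp inside the gene and 2153 bp from its best peak. That peak lies 235 bp beyond the outer end of Foxa1 on the same side. Where the start lay inside the peak, the peak reached a median of 1300 bp before it and 2689 bp after it at forkhead genes, against 635 bp and 1310 bp over 1453 such peaks of all coding genes. The part after the start was the longer one at 10 of the 15 forkhead genes, and at 81.6% of the peaks of all genes. Foxd3, with 7620 bp before and 5001 bp after, Foxl2, Foxi3, Foxn4 and Foxo1 were the 5 that reached farther before the start.

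The CpG count at the start did not separate members with and without a peak in 1 direction. Over the 300 bases around the start, members with a peak had 5 to 32 CpG with a median of 24 (16 genes). Counted in the richest window of each gene, members without a peak had either at most 8 or at least 33 CpG. Foxi1 and Foxn3 had 6 and Foxn1 and Foxp3 had 8. Foxp4 had 33, Foxo3 35, Foxj2 37, Foxj3 42, Foxp1 44 and Foxk2 59. In this window all 6 genes with at least 33 lay above each of the 16 members with a peak, and in each alternative count 1 of them did not. In the 250 bases before the start alone, Foxp4 had 27 CpG, below the 29 of Foxc1, and the mean over its 3 start windows put Foxp1 at 20.7, inside the range of the members with a peak. The starts listed for Foxn3 and Foxp1 lie 113593 and 494448 bp inside the gene. Over all coding genes with a window the median was 21 CpG with a peak and 13 without.

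**Figure D5:**
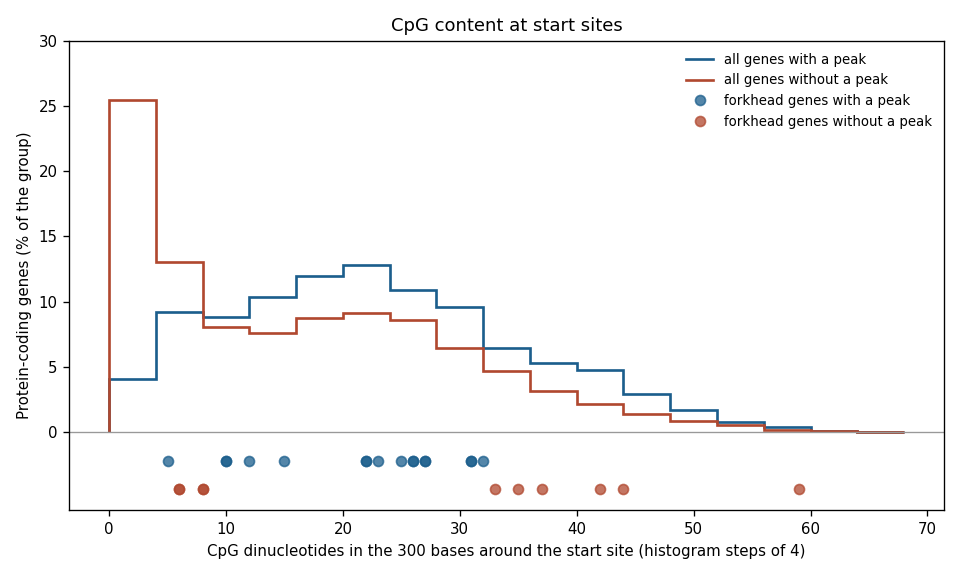
CpG dinucleotides in the 300 bases around the start site (horizontal axis). Lines show the percent of all protein-coding genes with a peak (blue) and without (red) in steps of 4 CpG, and points below 0 show the 16 forkhead genes with a peak and the 10 without. In the richest window of each gene, forkhead genes with a peak lie between 5 and 32 and those without either at 6 to 8 or at 33 to 59.

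The start windows were also searched on both strands for the forkhead recognition letters TGTTTAC and for the direct repeat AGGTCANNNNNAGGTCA bound by retinoic acid receptors. The first was found in 1 of 31 windows of members, at Foxa1, and in 3.65% of all 32851 windows. The second was found in 0 of the 31 and in 3 of all windows. A lone AGGTCA was found in 5 of the 31, at Foxe3, Foxi2, Foxk2, Foxn3 and Foxp3 (16.1%), and in 16.3% of all windows. A match or its absence describes only these letters in these windows.

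The other families of developmental transcription factors counted here had shares above the 61.0% of the forkhead genes. By the same rule a peak lay at 13 of 19 Sox genes (68.4%, 43.4 to 87.4), 8 of 9 Pax genes (88.9%, 51.8 to 99.7), 9 of 13 Tbx genes (69.2%, 38.6 to 90.9) and 5 of 6 Gata genes (83.3%, 35.9 to 99.6). Each interval overlaps that of the forkhead genes, but each is wide and rests on few genes, and no test between families was made.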

How the data were processed

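Suz12 ChIP-seq of 2 mouse embryonic stem cell libraries forms the series, and 1 peak list, of the wild-type library at 72 h, was analysed. The submitters' processing notes name Bowtie, MACS and the build GRCm38 (mm10). Tool versions, settings, control and pooling: not given in the sources used here. Each deposited peak score is the caller's own value, on a scale the file does not state, and the list gives no reads, so depth is unknown.

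Peak starts were converted to count from 1. Peaks were assigned to RefSeq gene bodies of GRCm38.p6 within 2.5 kb, with no set or group test. Intervals of shares are exact (Clopper-Pearson, 95%) and treat genes as independent. Start windows (250 bases before and 50 after the RefSeq start) gave strand and CpG counts; where a gene has several, the one with most CpG was used. Named genes are all 41 members. The members, subfamily groups and families were chosen with earlier results of these data known. Python 3.11.15, pandas 2.3.3, scipy 1.17.1 and matplotlib 3.10.9 were used, and the overlap code was tested on simulated peaks. Alternatives changed the score threshold, the distance and the CpG window.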

Additional observations from a re-analysis of the deposited data

How the results depend on the processing

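The 25 members with a peak stayed the same genes when the peak had to overlap the gene, at 1 kb and 5 kb, at the gene's outer ends only, and when each peak counted for the nearest gene alone. When only peaks scoring at least double the lowest were used, 23 remained, without Foxa3 and Foxp2. At or above the median score 22 remained, without Foxi2 as well. The share of the genes with 2.5 kb on either side that lay under peaks was 4.81%, and 2.68% when the gene bodies alone were counted, by construction of the narrower windows. The other 57 alternative values of summary results stayed within 1.5 times the main value. The best score of Foxa1 was 459 when its peak had to overlap the gene or counted for the nearest gene alone. Best scores say little about stability, since a score threshold cannot lower them and most sit at 3100. CpG counts in the 250 bases before the start had a median of 19 for members with a peak and 29 for those without, and means over the start windows of a gene 23.5 and 26.8, both added after seeing the data, against 24 and 34 in the main count. In both the set of 6 CpG-rich members without a peak no longer lay wholly above the members with a peak. A wider sequence window was not run, since no genome was used here. No paired analysis was possible because each group has 1 library and only 1 was analysed. A peak list without reads shows no depth, so a missing peak is not absence of Suz12.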

Other observations

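Further peaks lay beyond the 2.5 kb around some forkhead genes. Of the 25 members with a peak, 12 had a further peak between 2.5 and 20 kb away, against 2 of the 16 members without a peak. Over all coding genes the counts were 462 of 2833 with a peak (16.3%) and 1350 of 18798 without (7.18%). At Foxd3 this was a peak of score 1357 lying 3156 bp from the gene, and at Foxd1 a peak of score 1835 lying 8752 bp from it. At Foxl2 it was a peak of score 323. At Foxa3 it was a peak of score 1444 over the gene Mypop, higher than the 159 of its own peak. For Foxc2, Foxl1, Foxd2 and Foxe3 the further peak was, at least in part, that of the next forkhead gene.

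In the richest start window of each gene, the highest CpG counts were found at members without a peak. The bounds were set after the values were seen, the upper one just above 32, the highest count of a member with a peak. A peak lay at 1 of 5 members with under 10 CpG at the start, at 15 of 15 with 10 to 32, and at 0 of 6 with 33 or more. The 0 of 6 follows from how the upper bound was set. The 15 of 15 rests on the same bounds, so no interval is given for either. Over all coding genes with a start window the shares were 5.41% of 6873, 15.8% of 8202 and 19.6% of 2199. Without the upper bound, a peak lay at 15 of 21 members with 10 or more CpG, against 16.6% of 10401 coding genes. The members with 33 or more CpG were Foxj2, Foxj3, Foxk2, Foxo3, Foxp1 and Foxp4, but Foxp1 had 20.7 as a mean over its windows. For 15 members, among them Foxb1, Foxc2, Foxf1, Foxk1 and Foxm1, no start window was used here.

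Covered shares were measured only for the non-coding genes Foxl2os, Fendrr, Foxd2os and Foxo6os, and these differed. Peaks covered 59.9% of Foxl2os, 32.6% of Fendrr and 17.1% of Foxd2os, and no peak lay over Foxo6os, although Foxo6 had 3 peaks. The Foxo6 peak of score 3100 overlapped a different non-coding gene, Gm52678. Peaks of Foxa2, Foxb1, Foxd2 and Foxe1 also overlapped non-coding genes that were not measured.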
